A study of Homo sapiens with 4 samples.

Results

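The cytosine sites described here are those whose nearest gene is an olfactory receptor gene, chosen by a symbol that starts with OR, digits, letters and digits, such as OR2A4. They numbered 134 of 15177 sites in 6 tables, with each site counted once per table, and they were assigned to 65 genes. Sites listed in both GR libraries, 1 of them at an olfactory receptor gene, count in each. BisChIP-seq, the bisulfite sequencing of immunoprecipitated chromatin, was performed in HEK-293T cells, a human embryonic kidney cell line. In the GR experiment the cells carried the vectors GR-pCMV14, which adds a Flag tag, and DNMT3A-pLX304, and received 4 nM dexamethasone, a ligand of GR, for 24 h. In the BMAL1-CLOCK experiment they carried BMAL1-pCMV14, CLOCK-pCMV14 and DNMT3A-pLX304, without dexamethasone. All cells thus overexpressed DNMT3A, a DNA methyltransferase, and the factors came from transfected vectors rather than from the cells' own genes. For each experiment there was 1 library with the anti-Flag antibody and 1 control library with non-specific IgG. With 1 library per condition no value has a replicate error, and the tests compare libraries or sites, not conditions. Exact intervals and limits cover counting error only.

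Olfactory receptors are G protein-coupled receptors of the sensory neurons of the nose, where they bind odorants and signal through the G protein subunit GNAL, the adenylyl cyclase ADCY3 and a cyclic nucleotide-gated channel that contains CNGA2. Their genes form a very large family that stands in tandem clusters on many chromosomes, holds many pseudogenes, and is kept silent in most tissues. Class I receptors, here the families OR51, OR52, OR55 and OR56, resemble those of fish, and all others belong to class II. No expression was measured in these samples, so whether the genes were silent in these cells was not tested.

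The sites were cytosines in hexamers that the factors can bind. They are shown because every value refers to the capital letter, which marks the cytosine read.
GRE half-site, read in the GR libraries: agaaCa
Complement of the half-site, read in the GR libraries: tgttCt
E-box, read in the BMAL1-CLOCK libraries: Cacgtg
In none of them is this cytosine followed by G, so these are non-CpG cytosines. The methylation level of a site is the percent of its reads that were methylated. Each site had at least 4 reads.

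In the GR anti-Flag library the olfactory receptor sites were 8 of 1149 AGAACA sites in 6 genes and 52 of 6958 TGTTCT sites in 30 genes. The IgG control of GR held 28 of 2100 AGAACA sites in 14 genes and 7 of 615 TGTTCT sites in 4 genes. The BMAL1-CLOCK anti-Flag library held 39 of 4353 CACGTG sites in 24 genes. The IgG control of BMAL1-CLOCK listed 2 sites, none of them at an olfactory receptor gene. Olfactory receptor sites thus made up 0.696 and 0.747% of the GR tables, 1.33 and 1.14% of the tables of its IgG control, and 0.896% of the BMAL1-CLOCK table. The summed reads per table ranged from 4014 to 40545 in the tables with members.

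The 65 genes came from 15 receptor families on 15 chromosomes. Chromosome 11, where the largest clusters of the family lie, held 24 of the genes but only 25 of the sites. Chromosome 13 held 53 sites, all assigned to 1 gene, the pseudogene OR7E156P. Chromosome 14 followed with 11 sites of 7 genes and chromosome 1 with 9 sites of 6 genes. Of the 65 genes, 52 had 1 site, 9 had 2 sites and 4 had 3 or more. Besides OR7E156P these 4 were OR11H12 with 5 sites, and OR10J3 and OR5H2 with 3 sites each. Sites in more than 1 library were found for 7 genes, and only OR7E156P and OR11H12 had sites in all 3 libraries with members. The same overlap over all genes was not analysed here, so whether it is low or ordinary cannot be told. Class I was represented by 5 sites of 5 genes, at OR51Q1, OR51T1 and OR52I1 in the GR library, OR56B4 in its IgG control and OR52N2 in the BMAL1-CLOCK library. None of these 5 sites had a methylated read.

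All 65 symbols were found in the RefSeq gene table (GRCh38.p14), which names 61 of them protein-coding and 4 pseudogenes, namely OR7E156P, OR10J3, OR4C45 and OR5E1P. Pseudogenes were therefore 6.15% of the genes with a site, while they make up 54.9% of the 875 olfactory receptor symbols in that table. Which genes the authors' hg18 gene database held was not analysed here. Most of the genes lay inside receptor clusters. In the RefSeq order of protein-coding genes and pseudogenes, 56 of the 65 (86.2%) had another olfactory receptor gene as a direct neighbour, against 86.9% of all olfactory receptor genes and 3.12% of all genes. OR7E156P and OR11H12, the genes with the most sites, had none. Olfactory receptor genes can have near-identical copies, and how uniquely the reads at these sites could be placed was not tested.

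No olfactory receptor site in the GR anti-Flag library carried a methylated read. The 8 AGAACA sites had 0 of 36 reads methylated, where at least 1 methylated read was found at 3.83% of all sites of the table, and the 52 TGTTCT sites had 0 of 228, where that share was 2.95%. A count of 0 allows a share of up to 37.5% of the AGAACA sites and up to 5.77% of the TGTTCT sites. Over both motifs, 0 of 60 sites allows up to 5%, above the 3.09% (249 of 8047) of the other sites, so a difference was not detectable at this number of sites. Over reads, 0 of 264 allows a level of up to 1.14%, and the pooled level of the other sites was 2.22%. That pooled level rests on few sites with high levels, since 122 of the other 8047 sites reached 50% and 7798 had no methylated read, and reads of 1 site are not independent. It also varied with depth, as other sites with exactly 4 reads pooled to 0.886% for AGAACA and 0.906% for TGTTCT. Olfactory receptor sites of that depth had 0 of 20 and 0 of 172 reads methylated, which allow up to 15 and 1.74%. A lower level at olfactory receptor genes was thus not detectable at that depth.

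Among the AGAACA sites of the GR library, the reads were 5 at OR10J5 and 5 at OR5H2, and 4 each at OR9A4, OR6C75 and OR3A3. The 3 sites of OR7E156P had 4, 6 and 4 reads. All levels were 0%, and at this depth 0 of 4 reads leaves room for a site level of up to 75%. The TGTTCT sites were read as sparsely, with 43 of 52 at exactly 4 reads. The deepest olfactory receptor site of the series was the TGTTCT site of OR1C1, on the minus strand at position 245984183 of chromosome 1 in hg18, with 0 of 13 reads methylated. It lay 4148 bp from the TSS, inside a repeat, and its 0 reads allow a level of up to 23.1%. Next in this table were a site of OR7E156P with 0 of 7 reads and the OR51Q1 site, 5102 bp from its TSS, with 0 of 6 reads. No AGAACA and TGTTCT cytosine of 1 hexamer were both listed at an olfactory receptor gene. Over all sites, 20 hexamers had both among the 1149 AGAACA and 6958 TGTTCT sites of the GR library. In its IgG control 28 did, among 2100 and 615 sites. With so few over all sites, the count of 0 shows nothing particular to olfactory receptor genes.

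In the IgG control of GR, 10 of 28 AGAACA sites (35.7%, exact 95% interval 18.6 to 55.9%) and 1 of 7 TGTTCT sites (14.3%, interval 0.361 to 57.9%) carried a methylated read. The corresponding shares over all sites of these tables were 29.7 and 20.5%, within the intervals. Each of the 11 sites had exactly 1 methylated read, so the levels lay between 14.3 and 25%. They were found at OR10H3, OR13D1, OR13H1, OR4N2 and OR5H2 with 1 of 4 reads, at OR2Y1 with 1 of 5 reads, and at 5 sites of OR7E156P with 1 of 4, 1 of 5, 1 of 5, 1 of 5 and 1 of 7 reads. The pooled level of the AGAACA sites was 7.75% (10 of 129 reads, interval 3.78 to 13.8%), close to the 7.57% of the other sites of the table. For TGTTCT it was 3.33% (1 of 30 reads, interval 0.0844 to 17.2%), against 6.05% for the other sites. The IgG control thus had higher shares than the GR library, at olfactory receptor genes as at the other sites, and this difference was not tested over the members.

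OR5H2 and OR13H1 had sites in both GR libraries, with a methylated read in the IgG control. At OR5H2, on chromosome 3, the GR library had 0 of 5 methylated reads at the AGAACA site 28443 bp from the TSS and 0 of 4 at the TGTTCT site 16000 bp away, while the IgG control had 1 of 4 at an AGAACA site 6906 bp away. At OR13H1, on the X chromosome, no GR read of 4 was methylated, and 1 IgG read of 4 was, 122074 and 49707 bp from the TSS. These are single reads at different cytosines, so neither gene gives a comparison of the libraries at a matched site.

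Of the olfactory receptor sites, 1 was listed in both GR libraries with identical position and strand. This was the TGTTCT site of OR1C1, where neither the 13 GR reads nor the 5 IgG reads were methylated. The IgG value allows a level of up to 60.0%. With no methylated read in either library, Fisher's exact test on the reads could give no other outcome (two-sided p = 1, and 1 after Benjamini-Hochberg adjustment over the 77 shared sites, of which 9.09% were called). It therefore says nothing about a difference in level. The GR library had 2.60 times the reads of the IgG control at this site, where the median over the 77 shared sites was 2.00 and the range 0.400 to 49.8.

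In the BMAL1-CLOCK library, 5 of 39 olfactory receptor sites (12.8%, exact 95% interval 4.30 to 27.4%) carried a methylated read, beside 5.56% of all sites of the table, which the interval includes. The sites were those of OR10G3 with 1 of 4 reads, 3021 bp from its TSS, of OR2A25 with 1 of 5 reads, 8481 bp from its TSS, and 3 sites of OR7E156P with 1 of 5, 1 of 6 and 1 of 4 reads. The pooled level was 2.78% (5 of 180 reads, interval 0.908 to 6.36%), and that of the other sites was 1.22%. Among sites with exactly 4 reads the share was 2 of 22 (9.09%, interval 1.12 to 29.2%), beside 4.66% of 2402 other sites. The site nearest to a TSS lay 758 bp from that of OR2A2 and had 0 of 5 reads methylated. Next came OR4K15 at 1397 bp, OR6B3 at 1541 bp, OR2T34 at 1950 bp and OR7C2 at 2481 bp, with 4, 5, 4 and 4 reads and no methylated read.

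The E-box is a palindrome, and in the BMAL1-CLOCK library both strands were read for 61 hexamers among all 4353 sites. Of these hexamers 4 were at olfactory receptor genes. The hexamer at positions 63142631 to 63142636 of chromosome 13 (hg18), nearest OR7E156P, had 1 of 6 reads methylated on the plus strand and 1 of 4 on the minus strand. It was the only one of the 4 with a methylated read, and it carried 1 on each strand. How many of the 61 hexamers did so was not analysed here. The others had 0 of 4 and 0 of 4 reads at OR10J3, and 0 of 5 and 0 of 5, and 0 of 5 and 0 of 7, at OR7E156P. Both cytosines of such a hexamer count as sites, so 2 of the 5 sites with a methylated read were not separate places.

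**Figure D1:**
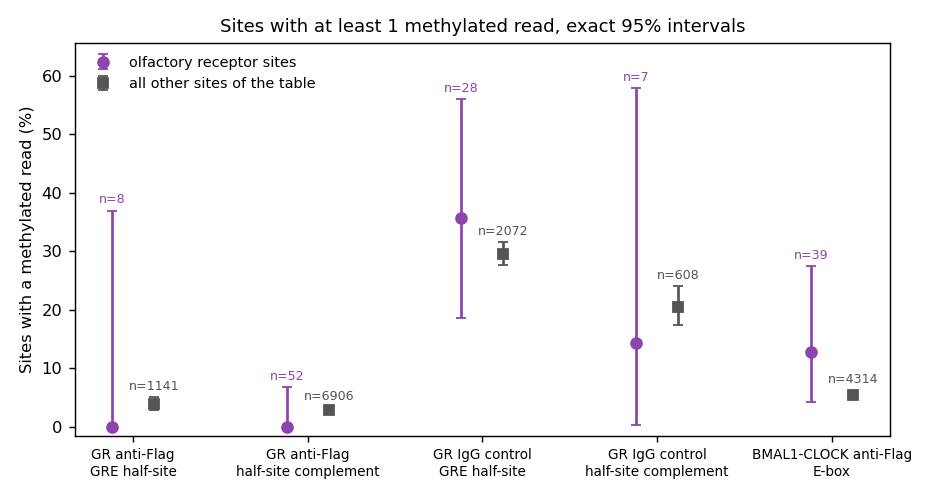
Share of sites with at least 1 methylated read (percent) for olfactory receptor sites and all other sites of each table, where half-site means AGAACA, its complement TGTTCT and E-box CACGTG. Points are shares, bars are exact 95% binomial intervals and n is the number of sites. The share is 0 for olfactory receptor sites in the GR library, and each purple interval includes the share of the other sites of its table.

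No olfactory receptor site in any table was highly methylated, which is taken here as a level of 50% or above. The highest level was 25%. Over all sites of the tables this threshold was reached by 1.22% of the AGAACA and 1.55% of the TGTTCT sites of the GR library, by 2.19 and 2.11% in its IgG control and by 0.115% of the CACGTG sites. The counts of 0 allow shares of up to 37.5, 5.77, 10.7, 42.9 and 7.69% in the same order, all above the shares of the whole tables, so lower shares at olfactory receptor genes were not detectable. By a one-sided exact binomial test of each site against the pooled level of its table, with Benjamini-Hochberg adjustment over the table, 0 olfactory receptor sites were called. Over all sites 1.13 and 1.15% were called in the GR library, 0.0952 and 0.325% in its IgG control, and 0.0459% in the BMAL1-CLOCK library. At an unadjusted p of 0.05 or less there were 2 olfactory receptor sites, those of OR10G3 and of OR7E156P with 1 of 4 reads in the BMAL1-CLOCK library (exact binomial p = 0.0483 each, adjusted p = 1). Such a p was found at 121 of all 4353 CACGTG sites (2.78%), at 1.22% of the AGAACA and 1.71% of the TGTTCT sites of the GR library, and at 2.95 and 2.28% in its IgG control. At 4 reads, a call would have needed 3 methylated reads in the GR and BMAL1-CLOCK libraries and 4 in the IgG control of GR.

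Olfactory receptor sites near a TSS were found in every table with members. In the GR library, 12 of the 60 sites (20%, exact 95% interval 10.8 to 32.3%) lay within 5 kb of a TSS, and 11.5% of the other sites did. In the IgG control it was 7 of 35 (20%, interval 8.44 to 36.9%), against 6.79%, and in the BMAL1-CLOCK library 7 of 39 (17.9%, interval 7.54 to 33.5%), against 7.53%. The interval included the share of the other sites in the GR library, began just at it in the BMAL1-CLOCK library and lay above it in the IgG control, and no test was run. By motif, the IgG share was 17.9% for AGAACA (interval 6.06 to 36.9%), against 6.76%, and 28.6% for TGTTCT (interval 3.67 to 71.0%), against 6.91%. Each of these intervals included the share of the other sites. Of the 7 IgG sites, 2 lay 77 bp apart at OR10H3. None of the 11 TGTTCT sites within 5 kb in the GR library had a methylated read, which allows a share of up to 27.3%. Of the 772 other sites at this distance 54 (6.99%) had one, so a lower share was not detectable. The 11 sites lay at OR6B2 (1236 and 4628 bp), OR8J3 (2173 and 2212 bp), OR4D2 (2717 bp), OR5M10 (2946 bp), OR52I1 (3602 bp), OR7E156P (3998 bp), OR1C1 (4148 bp), OR3A3 (4552 bp) and OR5AK2 (4811 bp). Of the 9 genes only OR1C1 had more than 4 reads at such a site. In the IgG control 3 of 5 AGAACA sites within 5 kb (60%, interval 14.7 to 94.7%) had 1 methylated read, beside 46 of the 140 other sites at this distance (32.9%), and none of the 2 TGTTCT sites did. The 3 sites lay at OR13D1 (2339 bp), OR10H3 (3331 bp) and OR4N2 (3747 bp), and the other 2 AGAACA sites at OR7E156P (344 bp) and OR10H3 (3254 bp).

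The median distance hid a strong split between OR7E156P and the other genes. Over the whole set the median was 23638 bp for AGAACA and 29480.5 bp for TGTTCT in the GR library, 61792 and 375714 bp in its IgG control, and 51184 bp for CACGTG. Without OR7E156P these fell to 12083, 16000, 12424, 4148 and 8755 bp, on 5, 33, 16, 3 and 24 sites. This gene was left out after the data were seen and held most of the distant sites, so that choice fixed the fall. The other sites of the tables, from which no gene was removed, had medians from 34856 to 72967 bp. Of the 49 olfactory receptor sites farther than 100 kb from a TSS, 43 belonged to OR7E156P, and the rest to OR11H12, OR4A47, OR4C13 and OR13H1.

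OR7E156P is a pseudogene of the OR7E subfamily, whose copies are spread over many chromosomes. It had 53 of the 134 sites (39.6%), which spanned 1146933 bp of chromosome 13, from position 62105522 to position 63252455 in hg18, and no site in that span was assigned to another gene. The distances place its TSS at position 63209568, with 52 sites on one side of it and 1 on the other. The median distance was 524870 bp and 29 sites lay over 500 kb away, so most of these sites lie far from the receptor gene whose name they carry. The site closest to the gene, an AGAACA site of the IgG control 344 bp from the TSS, had 0 of 4 reads methylated.

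Within this stretch the GR library had 22 sites and 96 reads, with no methylated read, and 0 of 22 allows up to 13.6% of the sites, above the 3.09% of sites outside olfactory receptor genes. The IgG control had a methylated read at 5 of 16 sites (31.3%, exact 95% interval 11 to 58.7%), with a pooled level of 6.94% (5 of 72 reads), beside 27.5% of its sites outside olfactory receptor genes and their pooled level of 7.14%. The BMAL1-CLOCK library had one at 3 of 15 sites (20%, interval 4.33 to 48.1%), with a pooled level of 4.05% (3 of 74 reads), beside 5.56% of all its sites and their pooled level of 1.23%. At the other olfactory receptor genes the pooled levels were 0% for both GR motifs, 8.11% for AGAACA and 0% for TGTTCT in the IgG control, and 1.89% in the BMAL1-CLOCK library. The E-box was read in the BMAL1-CLOCK experiment alone and the half-site in the GR experiment alone, so factor, motif and library cannot be told apart. Of the 8 sites with a methylated read, 6 lay farther than 100 kb from the TSS.

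Most olfactory receptor sites of the GR experiment lay in repeats, taken here as hexamers deposited wholly in lower-case letters. The sources do not state what the lower case means. In the GR library this held for 38 of 52 TGTTCT sites (73.1%, exact 95% interval 59.0 to 84.4%), beside 43.9% of the other TGTTCT sites. For AGAACA it was 5 of 8 (62.5%, interval 24.5 to 91.5%), beside 42.1%. Without OR7E156P the TGTTCT share was 78.8%. In the IgG control the share was 75% of the AGAACA sites (interval 55.1 to 89.3%), beside 67.0%, and 57.1% of the TGTTCT sites, beside 47.0%. The interval thus lay above the share of the other sites for TGTTCT in the GR library and included it in the other 3 tables. Repeats also went with fewer methylated sites in the GR library, where 42 of 3034 other TGTTCT sites inside repeats (1.38%) and 163 of 3808 outside (4.28%) had a methylated read, beside 0 of 38 and 0 of 13 olfactory receptor sites. These counts of 0 allow shares of up to 7.89 and 23.1%, so lower shares at olfactory receptor genes were not detectable. The part of repeats in the values of the olfactory receptor sites was not tested. In the IgG control 9 of the 10 AGAACA sites with a methylated read lay in repeats, among 21 of 28 sites there, while 30.3% of the other AGAACA sites inside and 28.1% outside repeats had one. Of the TGTTCT sites of the IgG control, 0 of 4 inside and 1 of 3 outside repeats had a methylated read. The CACGTG table does not mark repeats.

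**Figure D2:**
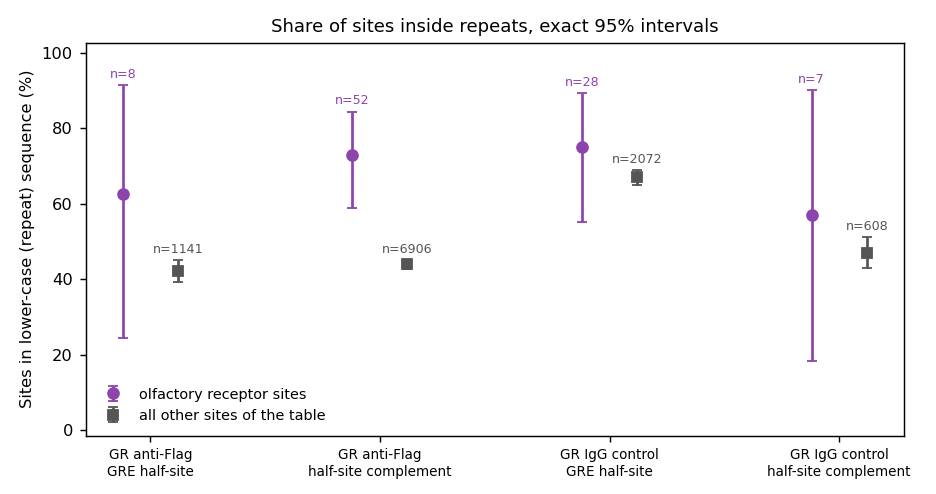
Share of sites inside repeats (percent) for olfactory receptor sites and all other sites of the 4 GR tables, where half-site means AGAACA and its complement TGTTCT. Hexamers wholly in lower case were taken as repeats. Points are shares, bars are exact 95% binomial intervals and n is the number of sites. The TGTTCT interval of the GR library, 59.0 to 84.4%, lies above the 43.9% of the other sites.

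Most olfactory receptor sites were read no deeper than the minimum for a site to be listed, with 93 of the 134 at exactly 4 reads. This share was 62.5% for AGAACA in the GR library, beside 81.6% of the other sites, and 82.7% for TGTTCT, beside 79.1%. For the IgG control it was 64.3%, beside 76.1%, and 71.4%, beside 80.1%, and in the BMAL1-CLOCK library 56.4%, beside 55.7%. The share was thus lower than that of the other sites in 3 of the 5 tables, and these differences were not tested. The deepest site of each table had 6 and 13 reads in the GR library, 7 and 5 in its IgG control and 7 in the BMAL1-CLOCK library. The other sites of these tables reached 3393 reads.

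Windows upstream of the genes show how often the hexamers occur where transcription may start. RefSeq (GRCh38.p14) gave a window from 250 bases before to 50 bases after the annotated start for 49 of the 65 genes, 51 windows in all. A GRE half-site, on either strand (AGAACA or TGTTCT), stood in 11 of the 51 windows (21.6%, exact 95% interval 11.3 to 35.3%), in 24.9% of all 329 olfactory receptor windows and in 14.8% of all 35116 windows. The E-box CACGTG stood in 1 of the 51 windows (1.96%), in 1.82% of the olfactory receptor windows and in 7.26% of all windows. The olfactory receptor windows were poor in G and C, with a median of 37.7% against 58.7% for all. In 39.5% of them the annotated start was an ATG, which means that the annotation there begins at the coding sequence. By the deposited distances, no site lay within 250 bp of the TSS of an olfactory receptor gene. The 250 bases before the GRCh38.p14 start are shown for 3 genes with sites within 5 kb of their hg18 TSS, with the hexamers in capitals. Whether these starts are the TSS from which the deposited distances were measured was not analysed here. OR6B2 held the only E-box, OR3A3 had a site in each GR table of its library, and OR13D1 had a methylated read in the IgG control.
OR6B2 (chr2:240030430-240030679, minus strand): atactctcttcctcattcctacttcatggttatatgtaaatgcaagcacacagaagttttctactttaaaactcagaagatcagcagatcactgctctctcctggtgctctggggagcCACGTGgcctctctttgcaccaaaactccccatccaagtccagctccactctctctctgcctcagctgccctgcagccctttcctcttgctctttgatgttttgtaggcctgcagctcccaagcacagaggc
OR3A3 (chr17:3411120-3411369, plus strand): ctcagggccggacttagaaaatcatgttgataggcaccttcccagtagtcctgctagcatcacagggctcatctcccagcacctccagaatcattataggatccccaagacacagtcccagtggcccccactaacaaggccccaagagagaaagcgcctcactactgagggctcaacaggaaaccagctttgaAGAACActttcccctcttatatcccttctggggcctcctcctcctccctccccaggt
OR13D1 (chr9:104694268-104694517, plus strand): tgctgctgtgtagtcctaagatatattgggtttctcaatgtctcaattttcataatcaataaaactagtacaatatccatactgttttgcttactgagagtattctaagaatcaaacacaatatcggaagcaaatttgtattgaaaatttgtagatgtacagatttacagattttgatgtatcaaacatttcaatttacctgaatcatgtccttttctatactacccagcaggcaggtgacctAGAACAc
These hexamers are matches of letters in the reference, and whether they were read in these libraries was not analysed here, since the tables use hg18.

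Other genes of olfaction had few sites. Of 29 listed genes of the signal pathway and of the sensory neuron, 8 had together 12 sites, and 0 of these were called. A single methylated read was found at 3 of them, at ADCY3 (1 of 4 reads) and EBF4 (1 of 4 reads) in the IgG control of GR and at CNGA2 (1 of 5 reads) in the BMAL1-CLOCK library, 3666 bp from its TSS. The GR library had 0 of 25 reads methylated at ANO2, EBF1, EBF3 and STOML3, a chloride channel, 2 transcription factors and a membrane protein of these neurons. Among the families of trace amine, vomeronasal and MS4A receptors, 1 site was listed, at TAAR9, with 0 of 4 reads methylated in the GR library.

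Values are given side by side for other gene families, matched by symbol and chosen because such families can stand in tandem clusters. Whether the matched genes lie in clusters was not analysed. The cadherin and protocadherin set was not limited to clustered genes. In the TGTTCT table of the GR library a methylated read was found at 0 of 70 sites of zinc finger genes, at 2 of 91 sites of cadherins and protocadherins (2.20%) and at 1 of 13 sites of small tandem families such as keratin-associated proteins and defensins (7.69%), beside the 0 of 52 of olfactory receptors. In the AGAACA table of that library it was found at 0 of 17, 0 of 12 and 0 of 2 sites, beside 0 of 8. In the AGAACA table of the IgG control the shares were 35.3% of 17, 29.8% of 47 and 25% of 8 sites, beside 35.7%, and for TGTTCT there 0 of 2, 4 of 14 and 0 of 2 sites, beside 1 of 7. In the BMAL1-CLOCK table they were 4.76% of 42, 12.3% of 57 and 0 of 8 sites, beside 12.8%. Differences between the families were not tested.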

How the data were processed

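BisChIP-seq was analysed in 4 libraries of HEK-293T cells. The authors aligned the pooled reads of 2 sequencing runs per library to hg18 by Bismark (no version found in the sources), counted overlapping mates once, removed duplicates by SAMtools and listed cytosines covered by 4 or more reads. The deposited tables hold, for each cytosine, the raw counts of methylated and total reads with the nearest gene and its unsigned TSS distance. Positions are given as deposited. The motif was taken from the table's name.

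Identical repeats of a row were removed, which affected 12 of 20 AGAACA and 2 of 54 TGTTCT olfactory receptor rows of the GR library. Shares have exact Clopper-Pearson 95% intervals, and a 0 is given with the limit of 3 counts. Hexamers wholly in lower case were taken as repeats (soft-masked sequence), which the sources do not state. Each site was tested against its table's pooled level by a one-sided exact binomial test, and each shared position by Fisher's exact test, adjusted by Benjamini and Hochberg over the whole table or all shared positions. Both were tested on simulated data, the binomial test at the real coverage. Fisher's test was simulated at a far higher depth than these sites had, so its power at few reads was not examined. Alternatives changed the symbols counted, distance limit, coverage minimum, threshold, neighbouring sites, repeats, repeated rows, background level and match of positions. Leaving out OR7E156P and using sites of exactly 4 reads were added after the data were seen. Promoter windows are from RefSeq. The members and lists were chosen with earlier results of these data known. Sites were named if they had a methylated read, were among the 10 deepest or the 10 nearest to a TSS of a table, belonged to genes in several tables or with 3 or more sites in a table, or had both strands read. Tools were Python 3.11.15, scipy 1.17.1 and pandas 2.3.3.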

Additional observations from a re-analysis of the deposited data

How the results depend on the processing

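Of 229 recomputed values, 188 stayed within the interval of the reported value or within 1.5 times a count, and 41 moved. Part of this was fixed in advance. Without a methylated read in the GR library, its shares, levels and calls are 0 in any subset. No site exceeded a level of 25%, so a threshold of 75% could only give 0. Many intervals are also wide, so the number that stayed is no measure of robustness. The number of sites fell without OR7E156P to 5, 33, 16, 3 and 24 (AGAACA and then TGTTCT in the GR library, the same in its IgG control, and the E-box), and with symbols matched to their end to 5, 32, 16, 3 and 24. Within 100 kb it fell to 5, 16 and 3 for GR AGAACA and the IgG motifs. With repeated rows counted it was 20 for GR AGAACA. With at least 8 reads, 1 site of 1 gene was left for TGTTCT in the GR library and 0 sites of 0 genes in the other tables, so levels at that depth rest on OR1C1. The median distance moved to 16000 bp for GR TGTTCT without OR7E156P and within 100 kb and to 15882 bp with symbols matched to their end, to 9491 bp for IgG AGAACA within 100 kb, and to 8755 bp for CACGTG without OR7E156P or with matched symbols. For IgG TGTTCT the share of sites with a methylated read and the pooled level became 0% in each of these settings that leave out its OR7E156P site and among sites with exactly 4 reads. For IgG AGAACA outside repeats they became 14.3 and 3.45%, and at a threshold of 25% the share was 21.4%. Counting sites closer than 200 bp once, a threshold of 75%, another background level and positions matched within 10 bp moved no value. The count of called olfactory receptor sites was recomputed within 100 kb and with the other background level, where it was 0 in each table with members, and with at least 8 reads for TGTTCT in the GR library, where it was also 0. No paired analysis was possible because each group has 1 library. With 4 reads a site takes only levels in steps of 25%, and the depth outside the listed sites is not known.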

Other observations

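In the IgG control of GR, 2 receptor genes on different chromosomes each had a pair of AGAACA sites on 1 strand with the same spacing of 77 bp. At OR2A5 on chromosome 7 (positions 143385415 and 143385492, plus strand, hg18) 0 of 4 and 0 of 7 reads were methylated, and at OR10H3 on chromosome 19 (positions 15716456 and 15716533, minus strand) 0 of 5 and 1 of 4. All 4 sites lay in repeats, and how often this spacing occurs over all AGAACA sites of this library was not analysed here. In the GR library such close TGTTCT pairs were seen at OR8J3, 39 bp apart with 0 of 4 reads each, and at OR7E156P, 19 bp apart with 0 of 5 reads each. The 134 sites were evenly split between the strands, with 67 on each.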
